A study of Mus musculus with 6 samples.

Results

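The genes described here are 9 members of the STAT3 pathway and its cytokine receptors: the receptor chains Il6ra, Osmr, Lifr and Il6st, the kinases Jak1 and Jak2, the transcription factor Stat3, its feedback inhibitor Socs3, and Bcl3, a nuclear partner of NF-kB that STAT3 is known to induce. They were taken by symbol from the 31053 genes of the matrices, and each of the 9 symbols named 1 gene. Nuclear RNA was counted in single nuclei (10x Genomics) of kidney cortex from FVB/N mice. There were 3 control libraries (genotype Klf4 fl/fl) and 3 knockout libraries (Podocin-Cre Klf4 fl/fl). Both groups carry the floxed Klf4 alleles, and the control genotype lists no Cre. Podocin is a protein of the podocyte's slit diaphragm, and its promoter is used to drive Cre in podocytes, the filtering cells of the glomerulus. Klf4 is a zinc-finger transcription factor. The labels give no age, sex, litter, batch or day, and do not say how many mice stand behind a library, so the p-values measure the spread between these libraries. The comparison asks how each gene's level in the cell types of the cortex differed between libraries with and without the podocyte Cre.

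In this pathway, cytokines of the interleukin-6 family bind a ligand-specific chain (Il6ra for interleukin-6, Osmr for oncostatin M, Lifr for leukemia inhibitory factor) together with the shared signalling chain gp130, which Il6st encodes. Janus kinases bound to the receptor tails phosphorylate STAT3, which dimerises, enters the nucleus and acts on target genes. Socs3 is one of these targets, and its protein blocks gp130 and the kinases. In the kidney the pathway is known from the response of tubule and glomerular cells to injury. RNA levels measure neither phosphorylation of STAT3 nor its activity.

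In mm10 coordinates (GENCODE vM21, each a protein-coding gene), Stat3 lies at chr11:100885098-100939540, Socs3 at chr11:117966079-117970047, Jak1 at chr4:101152367-101265282, Jak2 at chr19:29251828-29313080, and Il6st at chr13:112464070-112510086. Il6ra lies at chr3:89864059-89913196, Osmr at chr15:6813577-6874969, Lifr at chr15:7090614-7197489, and Bcl3 at chr7:19808462-19822770. Jak2, Il6st and Lifr are on the plus strand and the other 6 on the minus strand. Stat3 overlaps the end of Stat5a on the other strand. Jak1 overlaps 3 annotated genes (Gm12785, Raver2 and Gm24468), Bcl3 overlaps 2 (Gm16175 and Gm16174) and Il6ra overlaps Gm42809. Whether counting used strand is not given in the sources used here, so UMIs in the overlaps cannot be told apart.

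STAT dimers bind palindromes of the form TTCNNNGAA, which reads the same on both strands. RefSeq start sites (GRCm38.p6, 10 windows for all 9 members) were searched from 250 bases before to 50 after the start. Socs3 was the 1 member of 9 with a match, against 9.55% of 27025 genes and 8.30% of 32851 windows. The 250 bases before the RefSeq start of Socs3 are shown because they hold the match, in capitals, whose first base lies at position -154 from the RefSeq start. The same stretch of Stat3 is shown beside it and holds no match. Of the members, Stat3 was higher in the knockouts in the most cell types below, though it passed the test in 0 of them. The Socs3 stretch lies upstream of the RefSeq start but inside the GENCODE gene span given above. GENCODE starts its coding Socs3 transcript farther downstream, so these letters do not cover the whole Socs3 promoter.
Socs3, chr11:117969367-117969616, minus strand: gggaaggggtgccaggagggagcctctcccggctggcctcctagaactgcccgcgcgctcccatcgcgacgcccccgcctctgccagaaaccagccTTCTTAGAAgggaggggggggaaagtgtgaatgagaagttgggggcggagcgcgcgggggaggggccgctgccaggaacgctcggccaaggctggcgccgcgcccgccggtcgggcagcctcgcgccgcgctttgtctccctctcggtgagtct
Stat3, chr11:100939541-100939790, minus strand: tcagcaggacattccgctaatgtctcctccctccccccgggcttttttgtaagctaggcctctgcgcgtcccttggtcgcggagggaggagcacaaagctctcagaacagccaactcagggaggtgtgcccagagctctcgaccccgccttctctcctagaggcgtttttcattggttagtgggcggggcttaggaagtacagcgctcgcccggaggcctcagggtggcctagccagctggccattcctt

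The libraries held 3919 to 22080 barcodes and 8270961 to 62016616 UMIs (unique molecular identifiers, which count RNA molecules). Control 1 and knockout 1 stood apart, with 21957 and 22080 barcodes against 3919 to 6079, and a median mitochondrial share of 2.67% and 1.02% against 0.0870% to 0.163%. Barcodes shared by any 2 libraries were 5 to 132. Nuclei were clustered without the 9 members, and clusters were named from marker genes into 16 classes, each like a cell type by its markers. Clusters that fitted no single class were set aside, and these still count in sums over all nuclei. The proximal tubule class joins 15 clusters, in which the groups were present in unequal numbers. The injured tubule class joins a cluster led by Cd44, Cxcl2 and Vcam1 with a cluster led by Cpe and Stra6l, and Havcr1, a tubule injury marker, was among the leading genes of both. Of the 10 markers of this class, 3 were highest in it. It had 20, 2 and 19 nuclei in controls 1 to 3 and 1300, 254 and 184 in knockouts 1 to 3. The targeted gene was too sparse to check the labels: podocytes held 1 Klf4 UMI in controls and 4 in knockouts, and endothelial nuclei held 34 and 46. The exons removed are not given, and UMIs of a deleted gene outside them can remain. Levels below are CPM, a gene's UMIs scaled to a common total of UMIs for each class in each library, with mean ± SD over libraries, and they are compared between classes or groups for 1 gene at a time, never between genes. UMIs of the 10 proximal tubule markers were found in every class. Their summed level was lower in every knockout than in every control in podocytes, parietal epithelial, stromal, immune, injured tubule and both kinds of intercalated nuclei, and it is given where results of these classes are described.

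Among the receptor chains, Il6ra was a podocyte gene in this cortex. Podocytes read 267, 64.4 and 92.7 CPM in controls 1 to 3 and 133, 195 and 130 in the knockouts. Every knockout value lay above those of all other classes in the knockouts, and in the controls the podocyte range overlapped the next class, immune nuclei at 38.3 ± 51.3 CPM (n = 3). Proximal tubule, by far the largest class, read 1.38 to 1.66 CPM in the controls. Podocytes gave 36.8% of all control Il6ra UMIs and 25.1% of those in the knockouts. The podocyte values of the 2 groups overlapped (log2 change -0.04 ± 0.51 SE, knockout over control, edgeR adjusted p = 0.981). That value rested on control 1, since it was 1.02 without that library (adjusted p = 0.188) and -0.36 without control 2. The summed proximal tubule markers of podocytes were 6917, 9059 and 10043 CPM in controls 1 to 3 and 5596, 3961 and 1986 CPM in knockouts 1 to 3, and their part in the podocyte values here and below was not tested.

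Osmr, the oncostatin M receptor, was highest in the class of mesangial, mural and fibroblast nuclei, called stromal nuclei below. It read 75.7, 62.6 and 195 CPM there in the controls, followed by endothelial nuclei at 19.4, 41.3 and 64.8 CPM, and the 2 ranges overlapped. Proximal tubule of the controls read 0.803, 1.66 and 1.79 CPM. Lifr, the receptor for leukemia inhibitory factor, was highest in the thick ascending limb, the salt-reabsorbing segment, at 179, 158 and 222 CPM. The next class, endothelial nuclei at 134 ± 25.4 CPM (n = 3), reached into that range. Il6st, the shared chain, varied less between classes than Il6ra and Osmr. It ran from 60.3 CPM in distal convoluted tubule to 149 CPM in stromal nuclei over the classes with 3 control libraries, and urothelial nuclei read 231 ± 94.7 CPM (n = 2).

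The kinases and Stat3 were found in every class. Control Jak1 ran from 141 CPM in distal convoluted tubule to 364 ± 91.1 CPM in immune nuclei (n = 3), and control Jak2 was 83.9 ± 19.4 CPM in principal cells (n = 3). Control Stat3 was highest in principal cells of the collecting duct at 295 ± 116 CPM (n = 3). Distal convoluted tubule followed at 197 ± 58.2 CPM and connecting tubule at 192 ± 34.4 CPM, and none of these neighbours was clear of the next. Socs3 was sparse, with 177 UMIs in all libraries together. Bcl3 was highest in the few control injured tubule nuclei, at 47.1 and 47.9 CPM in controls 1 and 3 (3 UMIs each). This was not clear of the next class, parietal epithelial nuclei at 29.5 ± 51.1 CPM (n = 3), where control 3 alone read 88.6 CPM on 2 UMIs. Proximal tubule read 12.8 ± 9.36 CPM (n = 3).

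**Figure D1:**
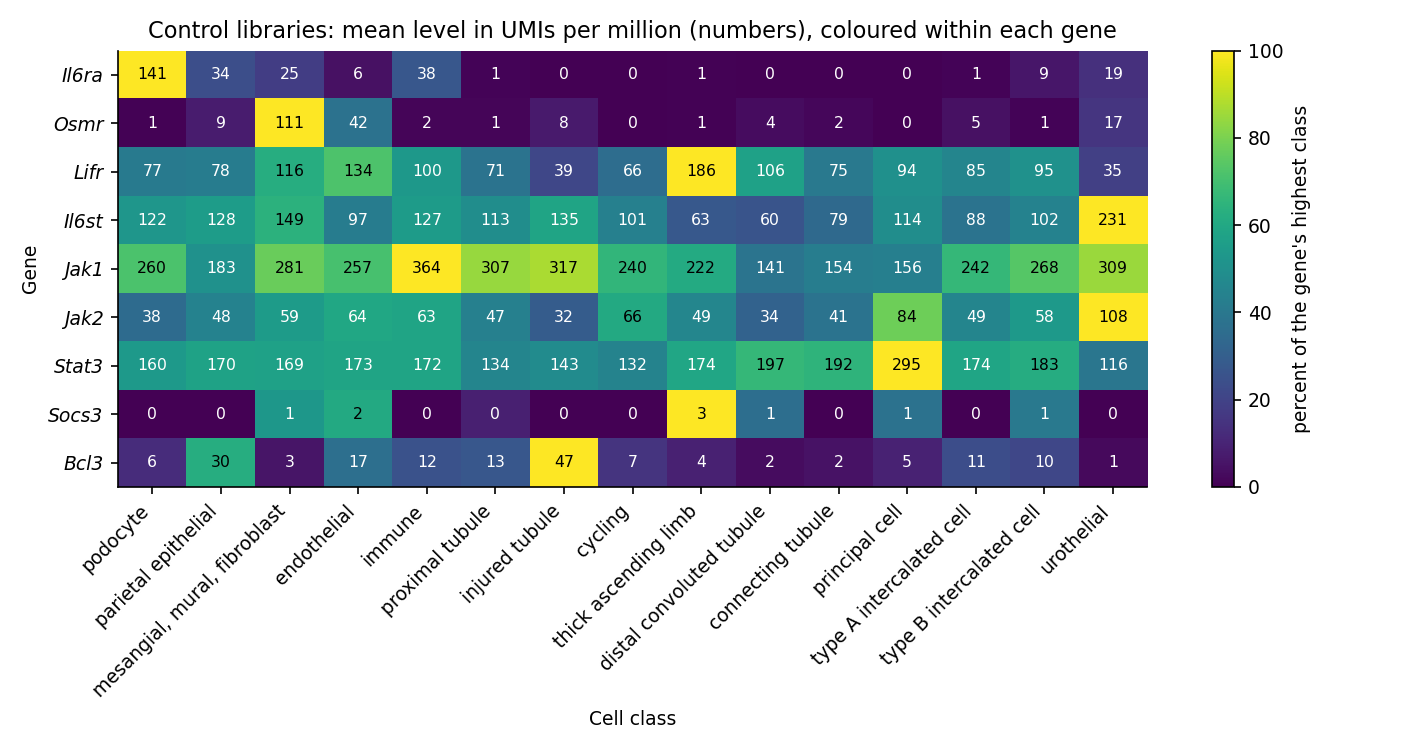
Mean control level of each member (rows) in each cell class with at least 2 usable control libraries (columns). Numbers are CPM and colour is the percent of the gene's own highest class, so that each row is read by itself: Il6ra peaks in podocytes, Osmr in stromal nuclei and Lifr in the thick ascending limb.

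Across classes of the control libraries, the genes whose levels followed Stat3 most closely were AI314180, Ptprj and Ahi1. Their Pearson correlations were 0.897, 0.882 and 0.881 over 15 classes, among 7259 genes that reached 50 CPM in some class. For Osmr they were Ctnna3 (0.925), Fbln5 (0.919) and Peak1 (0.912). These are descriptions, since the 15 points come from the same libraries, and Socs3 did not reach 50 CPM in any class.

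Stat3 was higher in the knockouts in every class in which it could be tested. Over all kept nuclei it read 105, 139 and 197 CPM in controls 1 to 3 and 207, 279 and 297 CPM in knockouts 1 to 3. Every knockout library lay above every control library, although knockout 1 was close to control 3. The log2 change was 0.78 ± 0.24 SE (edgeR quasi-likelihood test, adjusted p = 0.292), so it did not pass at an adjusted p of 0.05. In that comparison 0.192% of 16130 genes passed and 10.7% had every knockout above every control. In such a sum over nuclei a change in makeup and a change in level per nucleus cannot be told apart.

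By class the log2 change of Stat3 ran from 0.28 in principal cells to 1.40 in injured tubule, higher in 14 of 14 classes, with a median of 0.72. Of all genes tested in those classes, 48.4% to 55.6% were higher. The classes come from the same 6 libraries, so they are not 14 independent tests. Stat3 passed in 0 classes. Its unadjusted p was under 0.05 in 8 of the 14, and over the 75572 pairs of a gene and a class, 3.62% had such a p and a higher knockout. Stat3 was not tested in the 16th class, thin limb, or in urothelial nuclei, where it read 112 and 119 CPM in 2 controls and 129 and 52.1 CPM in 2 knockouts.

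In distal convoluted tubule Stat3 read 166, 160.6 and 264 CPM in controls 1 to 3, against 299, 376 and 534 CPM in knockouts 1 to 3. The groups did not overlap there, with every knockout above every control as in 6.18% of all genes, and the log2 change was 0.95 ± 0.26 SE (edgeR adjusted p = 0.708). With the replicate number as a block, the change passed at 0.93 ± 0.19 SE and an adjusted p of 0.0173, where 1.0% of 4480 genes passed. The summed proximal tubule markers in this class fell between 2720 and 4448 CPM in the controls and 1246 and 3493 CPM in the knockouts, and their part in the result was not tested.

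Stromal nuclei showed a similar picture, at 131, 134 and 242 CPM in the controls and 260, 282 and 334 CPM in the knockouts. Again no library overlapped (7.99% of all genes), with a log2 change of 0.72 ± 0.25 SE and an edgeR adjusted p of 0.395. With the block it passed at 0.78 ± 0.21 SE (adjusted p = 0.0464), where 2.95% of 6061 genes passed. The thick ascending limb read 148, 170 and 204 CPM against 232, 396 and 342 CPM, and here too the lowest knockout was above the highest control (5.53% of all genes). Its log2 change was 0.87 ± 0.24 SE (edgeR adjusted p = 0.784, and 0.0589 at the lowest of all alternatives).

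Connecting tubule (160.6, 187 and 229 CPM against 231, 294 and 432) and endothelial nuclei (124, 196 and 197 against 208, 281 and 264) were the other classes with 3 libraries a group in which the groups did not overlap. That made 5 of 13 such classes for Stat3, and in these 2 classes the share of all genes was 5.05% and 6.34%. In proximal tubule, the class that carried 48.0% of control Stat3 UMIs, the values were 87.0, 128 and 186 CPM against 181, 241 and 273 CPM. Knockout 1 lay just below control 3 there (log2 0.79 ± 0.29 SE, edgeR adjusted p = 0.644).

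In podocytes, the cells in which the Cre is driven, Stat3 read 154, 120 and 205 CPM in the controls and 194, 195 and 241 CPM in the knockouts. The groups overlapped, and the log2 change of 0.43 ± 0.30 SE (edgeR adjusted p = 0.537) was the smallest but 1 among the 14 classes. Principal cells had the smallest, at 173, 308 and 404 CPM against 325, 510 and 237 CPM. That value rested on control 1, since it was -0.03 without that library. Parietal epithelial nuclei, which line Bowman's capsule, read 128, 294 and 88.6 CPM against 223, 205 and 265 CPM, on 2 to 10 UMIs per control library.

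**Figure D2:**
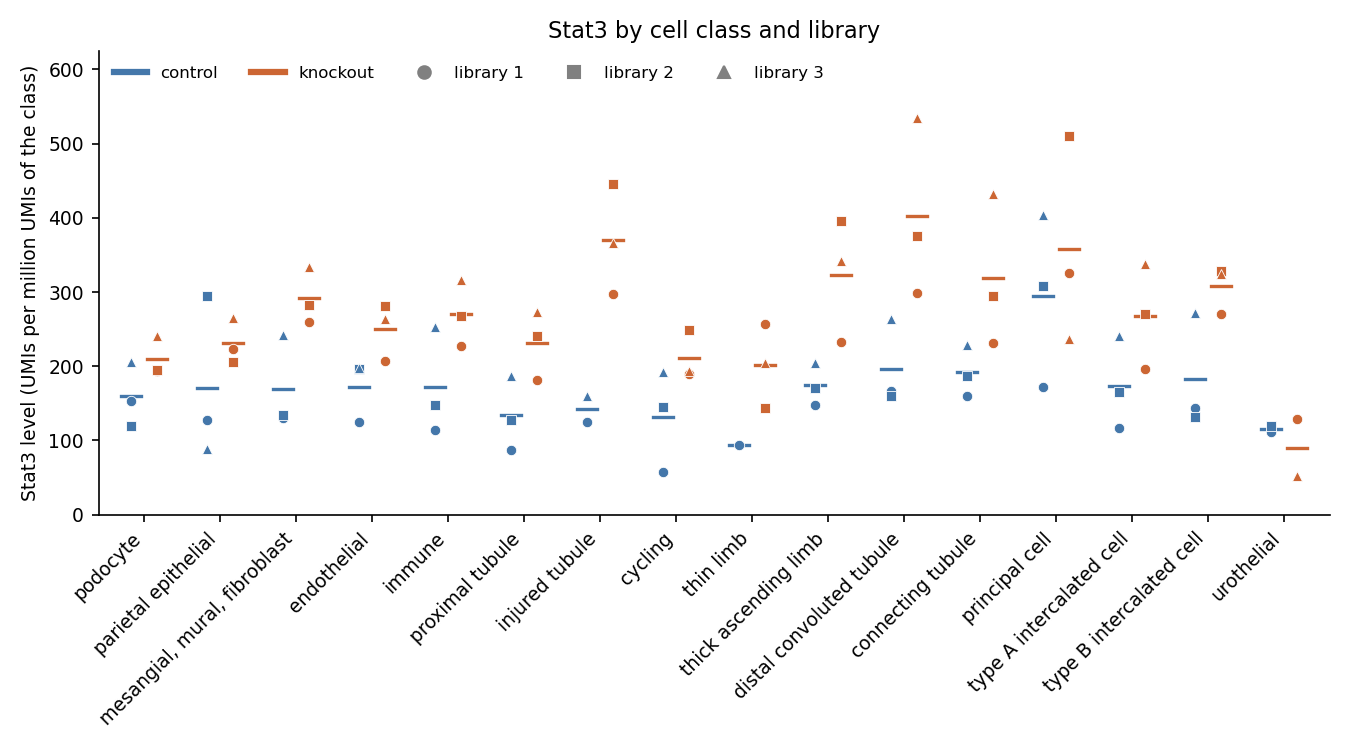
Stat3 level (CPM, y axis from 0) in each cell class (x axis), 1 point per library with at least 10 nuclei, controls in blue and knockouts in orange, marker shape for the library number and a bar for the group mean. Knockout means are above control means in 15 of the 16 classes, and urothelial nuclei are the exception.

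Jak1, Jak2, Il6st and Lifr lay on both sides of 0 over the classes. Osmr was higher in all 4 classes in which it was tested (median log2 change 0.90). In injured tubule it passed the low-count filter through the knockouts, with 1 and 0 UMIs in the fitted controls. Its endothelial change ran from -0.289 to 0.744 over the alternatives, so its direction there was not stable. Jak1 was higher in 9 of 15 classes and ran from -0.44 in type B intercalated cells to 0.35 in podocytes on the log2 scale, with a median of 0.08. In proximal tubule it read 242, 308 and 372 CPM against 251, 332 and 330 CPM (log2 -0.02 ± 0.21 SE). Il6st was lower in 10 of 15 classes, with a median log2 change of -0.10. Immune nuclei had 123, 124 and 134 CPM against 106, 78.0 and 98.7 CPM of Il6st, and type B intercalated cells had 103, 108 and 96.6 CPM against 94.2, 57.6 and 42.9 CPM. In these 2 of 13 classes every knockout lay below every control, yet neither change passed (log2 -0.41 ± 0.31 SE, edgeR adjusted p = 0.830, and -0.55 ± 0.32 SE, adjusted p = 0.784). Groups that do not overlap, in either direction, made up 12.5% and 12.3% of all genes in those 2 classes. Summed proximal tubule markers were 13182 to 15323 CPM in the control and 11342 to 12995 CPM in the knockout immune nuclei. In type B intercalated cells they were 9552 to 10683 and 6270 to 8707 CPM, and their part in these values was not tested.

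Lifr was higher in 7 of 11 classes, with a median log2 change of 0.06. In the thick ascending limb, where its mean control level was highest, it read 163, 225 and 200 CPM in the knockouts (log2 0.04 ± 0.22 SE). In principal cells, where Lifr was below the low-count filter, it read 89.5, 128 and 63.8 CPM against 56.4, 56.7 and 54.2 CPM. The groups did not overlap there, as in 12% of all genes in either direction, and the pooled ratio of 0.637 had a counting interval of 0.370 to 1.08. Jak2 was higher in 8 of 11 classes with a median of 0.12. Its largest differences were in injured tubule and in immune nuclei, where it read 45.6, 98.9 and 44.6 CPM against 108, 78.0 and 138 CPM on 20 and 77 UMIs (log2 1.00 ± 0.41 SE, edgeR adjusted p = 0.674). Over all 9 members and 15 tested classes, 73 of 135 pairs passed the low-count filter, 0 passed the test at an adjusted p of 0.05, and 11 had an unadjusted p under 0.05, all with higher knockouts. Of these 11 pairs, 8 were of Stat3, 2 of Osmr and 1 of Jak2. The Osmr pair of injured tubule is among them, and it entered the fit through the knockouts, so it does not add to the count as a result. Over all genes, 3.62% of 75572 pairs had an unadjusted p under 0.05 and a higher knockout. At the adjusted p of 0.05 few other genes passed either. The share of all genes that passed was 0.0% in injured, connecting and distal convoluted tubule, thick ascending limb, principal, endothelial and urothelial nuclei. It was 0.0176% in cycling nuclei, 0.02% in type B and 0.0384% in type A intercalated cells and 0.0381% in proximal tubule. It reached 0.15% in immune nuclei, 0.302% in podocytes, 0.429% in stromal nuclei and 4.68% in parietal epithelial nuclei.

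**Figure D3:**
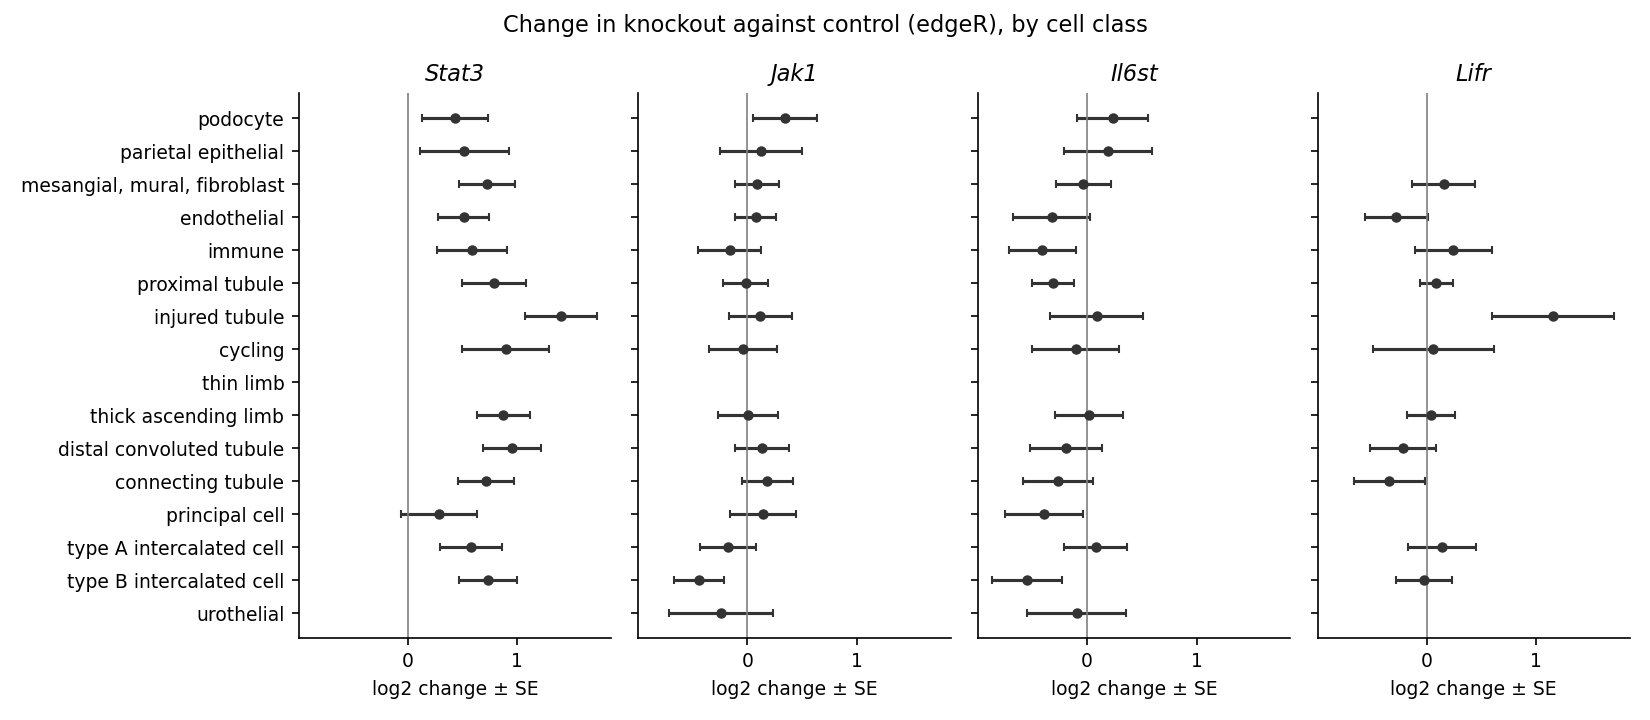
Log2 change in knockout over control with its standard error (x axis, edgeR) by cell class (y axis) for 4 members, with 0 marked by a line and classes without a fit left blank. All 14 Stat3 points are right of 0, while Jak1, Il6st and Lifr lie on both sides of it.

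Osmr was higher in stromal nuclei of the knockouts, its main site, at 164, 262 and 229 CPM against 75.7, 62.6 and 195 CPM. Control 3 lay inside the knockout range, and the log2 change was 0.82 ± 0.35 SE (edgeR adjusted p = 0.497). Endothelial nuclei read 31.6, 68.8 and 49.5 CPM of Osmr in the knockouts, against 19.4 to 64.8 CPM in the controls. The ranges overlapped (log2 0.20 ± 0.49 SE). In the thick ascending limb the gene was not tested, with 3 control and 17 knockout UMIs. The pooled level there was 6.86 times the control level, with a 95% counting interval of 1.98 to 36.5 (exact binomial, counting error only).

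Socs3 and Bcl3, both below the low-count filter in stromal nuclei, were higher there as well. Socs3 had 1, 0 and 1 UMIs in controls 1 to 3 and 9, 3 and 3 in the knockouts, or 1.89, 0 and 2.60 CPM against 11.4, 15.4 and 11.3 CPM. Its pooled ratio was 6.15 with a counting interval of 1.43 to 55.4. Bcl3 had 4 UMIs in the controls and 35 in the knockouts, at 5.68, 0 and 2.60 CPM against 25.4, 10.3 and 48.8 CPM, a ratio of 7.17 (2.56 to 27.8). In both cases each knockout library was above each control. This held for 7.99% of the 6061 genes above the low-count filter in this class, and was not computed for genes below it. Without the low-count filter Bcl3 passed in this class (log2 2.79 ± 0.76 SE, edgeR adjusted p = 0.0358), where 0.789% of all genes did. The summed proximal tubule markers in stromal nuclei were 8663 to 11502 CPM in the controls and 7547 to 8088 CPM in the knockouts, and their part in these values was not tested.

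Injured tubule nuclei of the knockouts held the highest Osmr of any tubule class. The controls had 1 UMI in control 1, 1 in control 2 and 0 in control 3, and the knockouts had 154, 21 and 17, or 57.5, 46.3 and 44.2 CPM. The fitted log2 change was 2.70 ± 0.99 SE on 2 control libraries, since control 2 with its 2 nuclei was left out (edgeR adjusted p = 0.328). The pooled ratio was 3.53 with a counting interval of 0.964 to 29.3, which includes 1. Within each knockout library Osmr was 14.4, 20.9 and 31.0 times the level in proximal tubule of the same library. This contrast between classes is a description, since the classes were made by clustering.

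The 2 injured clusters differed in Osmr. The Cd44-led cluster read 80.4, 107 and 73.0 CPM in knockouts 1 to 3, and the Cpe-led cluster read 27.5, 19.1 and 22.7 CPM, so the lowest library of the first was above the highest of the second. An unnamed cluster led by Kcnh8, Kcnip4 and Dock10, which also scored highest for injured tubule markers, held 78, 3 and 5 control nuclei and 657, 208 and 132 knockout nuclei. It read 40.9, 19.7 and 26.5 CPM of Osmr in the knockouts against 0 UMIs in the controls. When 3 UMIs are taken as the most the pooled controls could hide, their level is at most 18.6 CPM. The pooled knockout level of 35.7 CPM is at least 1.92-fold higher than that. This bound holds for the pooled nuclei and not for each library. Of the 56 knockout UMIs, 46 came from knockout 1, and knockout 2 lay close to 18.6 CPM.

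Stat3 in injured tubule read 125 and 160 CPM in controls 1 and 3, on 8 and 10 UMIs, and 298, 446 and 367 CPM in the knockouts. This was the largest Stat3 change of any class (log2 1.40 ± 0.33 SE, edgeR adjusted p = 0.225). The change passed in 3 alternatives. The adjusted p was 0.0476 with DESeq2, where 3.48% of all genes passed, 0.00702 without the low-count filter (0.686%) and 0.0203 with doublets kept (7.19%). Within each knockout library the level was 1.64, 1.85 and 1.34 times that of proximal tubule. The summed proximal tubule markers in this class were 12139 and 14072 CPM in the controls and 6575 to 7716 CPM in the knockouts, with 0 of the 10 markers at 0. The 10 injured tubule markers summed to 816 and 287 CPM in controls 1 and 3 and to 1547 to 1659 CPM in the knockouts. The control and knockout nuclei of this class thus differed in their own markers, and the part of that in the Stat3 value was not tested.

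Jak2 and Lifr were higher in injured tubule on very few control UMIs. Jak2 read 47.1 and 16.0 CPM against 98.1, 64.0 and 67.6 CPM (log2 1.37 ± 0.65 SE, edgeR adjusted p = 0.454), and Lifr 47.1 and 31.9 against 100, 66.2 and 83.2 CPM (1.15 ± 0.56 SE, adjusted p = 0.461). The controls behind these values held 3 and 1 Jak2 UMIs and 3 and 2 Lifr UMIs. With doublets kept the changes were 0.30 and 0.12. Bcl3, Jak1 and Il6st had log2 changes of 0.17, 0.12 and 0.09, and their groups overlapped. Without control 1 those of Jak1 and Il6st were -0.08 and -0.46, and without control 3 they were 0.51 and 1.24. Over the 7 members tested the median was 1.15, which is the Lifr value, against 0.10 over all 6571 genes tested in the class. With so few control UMIs, members such as Osmr passed the low-count filter through the knockouts. The median therefore does not measure the members as a set. Socs3 had 0 control UMIs and 28, 2 and 4 knockout UMIs, a pooled 9.66 CPM. A count of 0 in these control nuclei allows up to 23.2 CPM, so a difference was not detectable at this depth. The same limit holds for Il6ra, with 0 control UMIs and a pooled 7.39 CPM in the knockouts.

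Cycling nuclei, which had 36, 15 and 20 control and 501, 300 and 290 knockout nuclei, read 57.0, 145 and 192 CPM of Stat3 in the controls and 190, 249 and 194 CPM in the knockouts. The groups overlapped at control 3 (log2 0.89 ± 0.40 SE, edgeR adjusted p = 0.723). Osmr had 0 control UMIs there and 8, 1 and 4 in the knockouts.

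**Figure D4:**
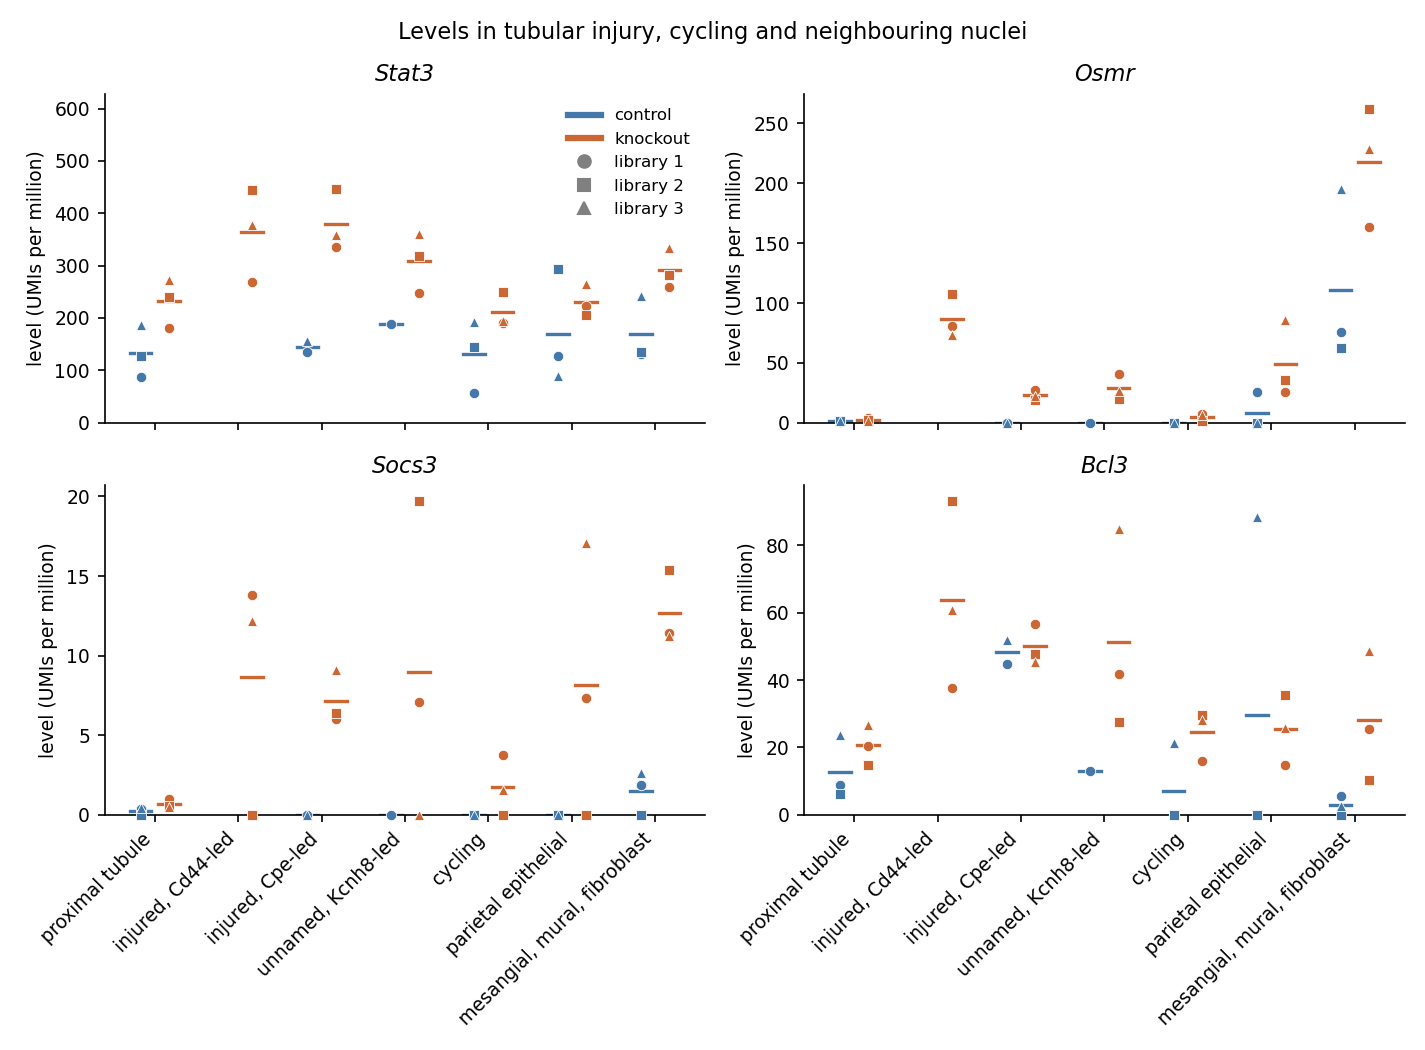
Levels of Stat3, Osmr, Socs3 and Bcl3 (CPM, y axes from 0) by library in proximal tubule, the 2 injured tubule clusters, the unnamed Kcnh8-led cluster, cycling, parietal epithelial and stromal nuclei, drawn where a library has at least 10 nuclei. The Cd44-led cluster has no control library with enough nuclei, and its knockout Osmr points, 73.0 to 107 CPM, lie above those of the Cpe-led cluster.

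Summed over all nuclei, Socs3, Osmr and Jak2 were higher in every knockout library than in every control, as was Stat3. The same was true of 10.7% of all genes. Socs3 had 19, 2 and 8 UMIs in the controls (0.391, 0.258 and 0.690 CPM) and 107, 22 and 19 in the knockouts (2.97, 2.54 and 1.69 CPM). Its log2 change was 2.35 ± 0.52 SE (edgeR adjusted p = 0.157), and it passed with DESeq2 (log2 2.37, adjusted p = 0.0133), where 3.05% of all genes did. Osmr read 4.53, 5.42 and 12.2 CPM against 16.3, 15.6 and 15.2 CPM (log2 1.05 ± 0.37 SE, edgeR adjusted p = 0.381). Bcl3 read 7.80, 4.52 and 21.0 CPM against 21.7, 19.3 and 24.7 CPM, with control 3 inside the knockout range (0.92 ± 0.50 SE, adjusted p = 0.629). Jak2 lay at 46.8, 52.4 and 46.5 CPM against 53.5, 55.4 and 58.8 CPM, a small log2 change of 0.14 ± 0.12 SE. The changes of Il6ra (0.04), Jak1 (-0.06), Lifr (-0.06) and Il6st (-0.25) were each within 2 SE of 0. Of the 9 members 0 passed, and 3 (Stat3, Socs3 and Osmr) had an unadjusted p under 0.05 with higher knockouts, against 5.1% of all genes. The median of the 9 was 0.14 against -0.03 over all genes.

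Injured tubule and cycling nuclei supplied 0.520 ± 0.367% of all UMIs in the controls and 10.3 ± 1.15% in the knockouts (n = 3 each). Every member moved with them. For Stat3 the share of its UMIs from these classes was 0.256, 0.465 and 0.832% in controls 1 to 3, compared with 13.4, 13.9 and 7.94% for knockouts 1 to 3. Osmr had 0.455, 2.38 and 0% against 27.6, 16.3 and 12.3%, Bcl3 0.792, 0 and 1.64% against 17.9, 26.3 and 13.7%, and Socs3 0, 0 and 0% against 29.9, 9.09 and 26.3%. The knockout means of these 3 were 18.7%, 19.3% and 21.8%. Jak2 (13.1%), Il6st (13.04%), Stat3 (11.7%) and Jak1 (10.9%) lay closer to the share of all UMIs, and Lifr (9.02%) and Il6ra (9.69%) were below it. Single libraries did not all follow these means. Socs3 in knockout 2, at 2 of 22 UMIs, was below the 11.4% of all UMIs in that library. Stat3 in knockout 3, at 7.94%, was below the 9.12% of all UMIs there. Lifr in knockout 1 (11.5% against 10.4% of all UMIs) and Il6ra in knockout 2 (12.2% against 11.4%) were above. Each of the 9 differences had p = 0.1 in a two-sided exact permutation test over libraries (adjusted p = 0.1 over the 9), which is the smallest p that 3 against 3 can give. The share of nuclei in these classes, 0.520% and 9.80%, moved in the same way, so these differences do not separate a member from the makeup of the tissue.

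**Figure D5:**
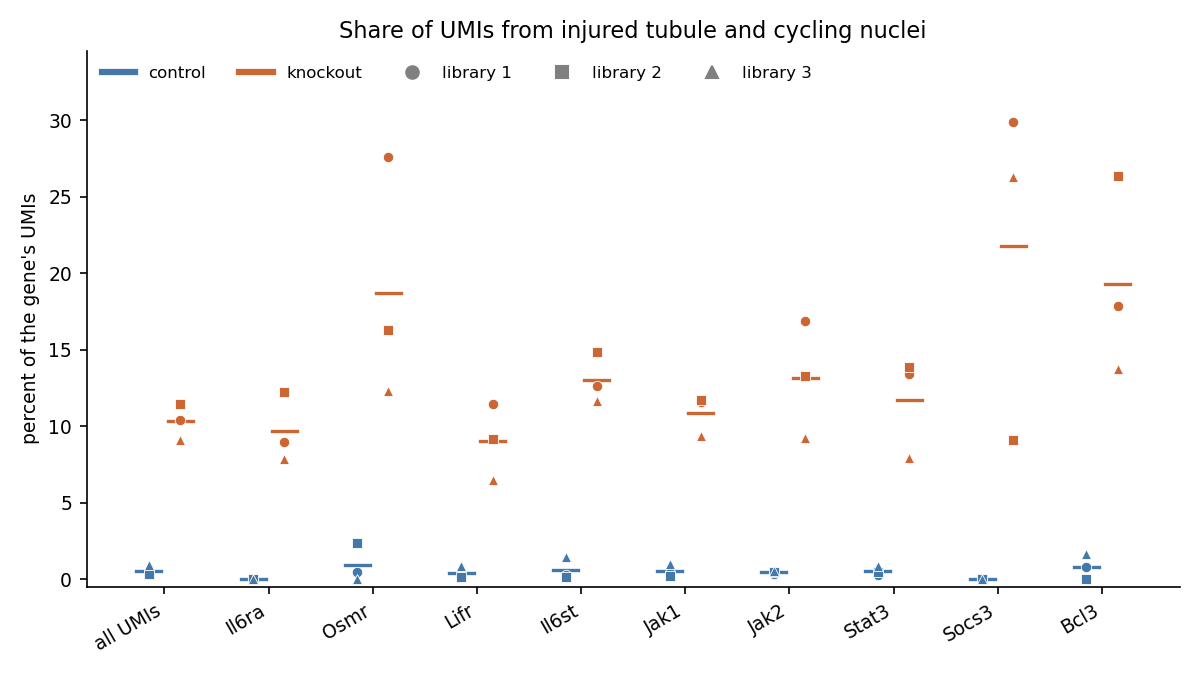
Percent of each member's UMIs, and of all UMIs, that came from injured tubule and cycling nuclei (y axis), 1 point per library with a bar for the group mean. Controls lie between 0 and 2.38%, knockouts between 6.45 and 29.9%, and the knockout means of 7 of the 9 members, all but Lifr and Il6ra, are above that of all UMIs.

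A list of 67 further genes of the pathway was followed in the same fits. Over all nuclei 49 were tested, 28 were higher and 21 lower, 0 passed at an adjusted p of 0.05 and 10 had an unadjusted p under 0.05 (9.89% of all genes did). The list's median log2 change was 0.13, against -0.03 over all genes. The most significant were Birc5, a target that blocks cell death and acts in mitosis, at 1.05, 1.42 and 1.55 CPM against 4.02, 6.22 and 8.55 CPM (log2 2.17 ± 0.37 SE, edgeR adjusted p = 0.0873), and Fgg, the fibrinogen gamma chain, at 0.803, 0.258 and 0.604 CPM against 7.83, 7.15 and 2.67 CPM (3.20 ± 0.58 SE, adjusted p = 0.102). With the replicate block 4 genes passed, where 1.73% of all genes did: Birc5 (adjusted p = 0.0287), Fgg (0.0332), Fga (log2 1.71, 0.0332) and the ligand Clcf1 (log2 2.03, 0.0470). Fga and Clcf1 are named for all nuclei after their values were seen. In these sums makeup and level per nucleus cannot be told apart. Cycling nuclei were 0.215, 0.401 and 0.396% of nuclei in controls 1 to 3 and 2.75, 6.13 and 5.03% in knockouts 1 to 3. Their part in the Birc5 value was not tested.

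Most of the ligands were sparse in these nuclei. Of 11 listed, 2 passed the low-count filter over all nuclei, Clcf1 and Ctf1. Il6 had 0, 3 and 5 UMIs in controls 1 to 3 against 3, 2 and 2 in knockouts 1 to 3, Osm had 1 UMI in each group, and Cntf had 0 in all 6 libraries. Lif had 21, 5 and 7 against 72, 5 and 14 UMIs. Clcf1, a ligand of the ciliary neurotrophic factor receptor, was the most counted, with 89, 19 and 21 against 481, 65 and 58 UMIs. It read 0 and 16.0 CPM in the control injured tubule and 63.4, 37.5 and 36.4 CPM in the knockouts (log2 2.64 ± 1.11 SE, edgeR adjusted p = 0.387). Clcf1 passed the low-count filter there through the knockouts, so the size of this fitted change is not reliable. Of 8 further receptor chains, 6 were tested over all nuclei, 1 was higher and 5 were lower, and 0 had an unadjusted p under 0.05. Of the 6 other STAT genes, 3 were higher and 3 lower. Stat5a, which overlaps Stat3 in the genome, read 26.4, 30.2 and 38.1 CPM against 35.3, 53.1 and 39.5 CPM (log2 0.38 ± 0.21 SE, adjusted p = 0.637), named here for the overlap.

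Among the inhibitors, Socs2, a suppressor of cytokine signalling best known downstream of growth hormone, stood first in several classes. In injured tubule it read 31.4 and 0 CPM in controls 1 and 3 and 137, 113 and 146 CPM in the knockouts (log2 3.08 ± 0.71 SE, edgeR adjusted p = 0.225). With 0 in control 3, Socs2 passed the low-count filter there through the knockouts, so the size of this fitted change is not reliable. It was also higher in distal convoluted tubule, at 94.2, 53.5 and 55.3 CPM against 177, 104 and 215 CPM (1.16 ± 0.33 SE, adjusted p = 0.708), where it passed with the block (adjusted p = 0.0254). Connecting tubule read 53.9, 36.0 and 45.03 CPM against 67.1, 100 and 93.1 CPM (0.75 ± 0.30 SE, edgeR adjusted p = 1.000).

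Among the targets, Pim3, a survival kinase, was lower in the knockouts in the classes named here. It passed in none of them in the main comparison. In type A intercalated cells it read 149, 220 and 181 CPM against 66.4, 111 and 100 CPM (log2 -1.05 ± 0.26 SE, edgeR adjusted p = 0.176), and with the block it passed (adjusted p = 0.0235), where 3.05% of all genes passed. The summed proximal tubule markers of these cells were 12114 to 12819 CPM in the controls and 7543 to 10429 CPM in the knockouts, and their part in the Pim3 value was not tested. In the thick ascending limb it read 139, 195 and 145 CPM against 97.1, 83.6 and 42.7 CPM (-1.09 ± 0.32 SE, adjusted p = 0.803). Pim3 was also among the 2 genes of the list with the smallest p in the classes that follow, and was lower in each. The log2 changes were -0.83 in distal convoluted tubule, -0.51 ± 0.25 SE in connecting tubule and -0.94 in cycling nuclei. They were -0.53 in endothelial, -0.48 in immune and -0.63 in stromal nuclei. A low rank within the list is not a low p. In endothelial nuclei 0 listed genes, and in stromal nuclei 0 listed targets, had an unadjusted p under 0.05 (edgeR). In parietal epithelial nuclei the transcriptional repressor Bcl6 read 448, 420 and 310 CPM against 205, 44.6 and 51.3 CPM (log2 -1.81 ± 0.54 SE, edgeR adjusted p = 0.0797), and with the block it passed (adjusted p = 0.00756), where 11.4% of all genes passed. Without knockout 1 it passed at -3.09 (adjusted p = 0.000579), where 16.6% of all genes passed. Vegfa, the vascular growth factor, read 154, 420 and 443 CPM against 139, 107 and 77.0 CPM there (-1.38 ± 0.44 SE, adjusted p = 0.0958). The summed proximal tubule markers of these parietal nuclei were 6509 to 11308 CPM in the controls and 2078 to 5962 CPM in the knockouts, and their part in these values was not tested. The listed targets thus moved in both directions, with Birc5, Fgg and Fga higher and Pim3, Bcl6 and Vegfa lower in the places named, and in the main comparison 0 of the 67 genes passed in any of the 15 classes.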

How the data were processed

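The values are the raw UMI counts that the authors deposited for each library; their headers name Cell Ranger 3.1.0, and mm10 is the genome build. Seurat is also listed in the submitters' processing notes. Use of intronic reads and strand is not given in the sources used here. The authors' cell names were not used here. The members and lists were chosen with earlier results of these data known. Kept barcodes had 300 or more genes and no more than 5% mitochondrial UMIs. Scrublet's automatic threshold called 0 to 6 barcodes per library, so the highest scores were removed at up to 0.8% per 1000 barcodes, leaving 3741 to 18238 nuclei per library. Counts were clustered (scanpy 1.11.5, igraph 0.11.9, 3000 variable genes) into 61 clusters without the members and the 67 listed genes. Of these, 12 mixed and 4 unnamed clusters were set aside. The limits used in naming were chosen with the clusters in view, and names can differ from the study's. Raw counts were summed per library and class with at least 10 nuclei and tested with edgeR 4.0.16 (quasi-likelihood, TMM, filterByExpr, Benjamini-Hochberg over all genes, adjusted p of 0.05) on R 4.3.3, checked on simulated data. Thin limb had 1 control library with enough nuclei and was not tested. Of the listed genes, those past the threshold, or else the 2 with the smallest p per class, are named. The labels number replicates 1 to 3 in both groups, and same-numbered libraries deviated together over all nuclei (correlations 0.659, 0.370 and 0.382), so blocked values are given where they change a call. Library 3 did not correlate best with its own number. Alternatives were DESeq2 1.42.0, its size factors, no filter, the block, each library left out, both libraries numbered 1 left out, doublets kept and classes by highest score.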

Additional observations from a re-analysis of the deposited data

Results flagged for a closer look

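For Lifr, the receptor for leukemia inhibitory factor, the libraries of the groups lay apart in opposite directions in injured tubule and principal cells. In injured tubule both usable control libraries lay below all 3 knockouts, with a ratio of mean CPM of 2.11 (knockout over control) on 5 control UMIs. That change did not pass (edgeR adjusted p = 0.461), and its log2 value of 1.15 ran from 0.116 with doublets kept to 1.54 without control 1. In principal cells all 3 knockouts lay below all 3 controls, with a ratio of mean CPM of 0.594 on 39 control and 25 knockout UMIs. Groups that do not overlap, in either direction, made up 12% of all genes tested in principal cells. This share was not computed for injured tubule. Lifr was below the low-count filter there, and the counting interval of its pooled ratio, 0.370 to 1.08, includes 1. The difference between the classes was not tested.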

How the results depend on the processing

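Of the 9 members, 0 passed in any class or over all nuclei with edgeR. Over the classes the count became 1 with DESeq2, 2 without the low-count filter, 2 with the replicate block and 1 with doublets kept, and it stayed at 0 whichever library was left out. In the classes of these calls more of all genes passed too. Their share was 3.48% in injured tubule with DESeq2 and 7.19% there with doublets kept. Without the filter it was 0.686% in injured tubule and 0.789% in stromal nuclei. With the block it was 1.0% in distal convoluted tubule and 2.95% in stromal nuclei. Over all nuclei the count of members became 1 with DESeq2, where 3.05% of all genes passed, against 0.192% in the main comparison. For the 67 listed genes the count over the classes, 0, became 1 with DESeq2, 5 without the filter, 3 with the replicate block, 1 without both libraries numbered 1 and 3 with doublets kept, and ran from 0 to 2 with 1 library left out. Without knockout 1 the count was 2, with its calls in parietal epithelial nuclei, where 16.6% of all genes passed. With the block the calls were in distal convoluted tubule, parietal epithelial and type A intercalated nuclei. There 1.0%, 11.4% and 3.05% of all genes passed. With doublets kept they were in injured tubule, where 7.19% of all genes passed. Over all nuclei the 0 of the listed genes became 7 with DESeq2, 4 with the replicate block and 4 without both libraries numbered 1. Of all genes, 3.05% passed there with DESeq2 and 1.73% with the block. The cause of these differences was not tested. Stat3 kept its direction in 13 of 14 classes under every alternative run. In principal cells its log2 change ran from -0.0289 (without control 1) to 0.645 (without control 3) with 1 library left out, and was -0.0943 without both libraries numbered 1. Of the 73 pairs tested, 42 kept their direction throughout. Over all nuclei 3 small changes turned sign with a library left out. Il6ra ran from -0.0857 to 0.187, and was -0.0470 without knockout 1 and -0.0390 without both libraries numbered 1. Jak1 ran from -0.174 to 0.0798, and Lifr from -0.137 to 0.0121. The controls of injured tubule hold 20 Stat3 UMIs and 2 Osmr UMIs, which limits every value there.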
